A study of Mus musculus with 6 samples.

Results

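Type I interferon-stimulated genes are the genes that cells switch on when an interferon of the alpha or beta kind binds its receptor. The 42 genes described here were taken by gene symbol from what is known of that response, with earlier results of these data known. Each was present in the count table of 56748 genes. All 42 passed the filter on low counts, which left 16377 genes tested. The data are bulk RNA sequencing of aortas from mice aged 6 months that had received angiotensin II from an osmotic minipump for 28 days, a model of aortic disease. The 3 sST2-KO aortas came from mice labelled as lacking both soluble ST2 (sST2) and apolipoprotein E. The 3 WT aortas came from littermates that are wild type for sST2 only: they too are labelled as lacking apolipoprotein E and were given angiotensin II in the same way. Apoe was nonetheless counted in every library, with the values given below. Aortas without angiotensin II were not analysed here, and the allele used to remove sST2, the sex of the mice and any pooling were not stated in the labels. In bulk tissue, fewer cells of a type and less RNA per cell cannot be told apart.

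Type I interferons bind a receptor made of the IFNAR1 and IFNAR2 chains, whose kinases JAK1 and TYK2 phosphorylate STAT2, among others. STAT2 joins IRF9 in a complex that binds a short DNA element, the interferon-stimulated response element (ISRE), and starts transcription of many antiviral and regulatory genes. Macrophages, endothelial cells and smooth muscle cells can all respond. Soluble ST2 is the secreted product of Il1rl1, which binds the cytokine IL-33 and keeps it from its membrane receptor.

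The DNA letters read by that complex can be seen close to the transcription start of many of the 42 genes. Promoters (250 bases before to 50 bases after the transcription start, RefSeq, GRCm38.p6) were on hand for 32 members, in a reference build that differs from the mm39 coordinates of the counts and is used only for sequence. The core letters of the ISRE, searched as GAAA followed by 2 bases of any kind and GAAA again, on either strand, were found in the promoters of 16 of these 32 members (50%), against 456 of 11706 tested genes with a promoter (3.90%) and 3.44% of all 32851 promoters. A match describes the letters only, and matches may overlap each other. The promoters of Isg15 (chr4:156200769-156201068, minus strand) and Ifit1 (chr19:34640639-34640938, plus strand) are shown because they hold several matches, in capitals. That of Irf7 (chr7:141266375-141266674, minus strand) is shown because it has no match in this window, while the gene's level in WT replicates 1 and 3 lay above the sST2-KO mean as in the other 2 genes.
Isg15: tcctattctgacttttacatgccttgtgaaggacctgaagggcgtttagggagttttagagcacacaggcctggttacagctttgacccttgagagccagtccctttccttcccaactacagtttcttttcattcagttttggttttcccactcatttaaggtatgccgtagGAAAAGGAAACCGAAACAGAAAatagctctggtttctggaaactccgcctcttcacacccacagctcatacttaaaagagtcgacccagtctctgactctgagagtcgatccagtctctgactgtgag
Ifit1: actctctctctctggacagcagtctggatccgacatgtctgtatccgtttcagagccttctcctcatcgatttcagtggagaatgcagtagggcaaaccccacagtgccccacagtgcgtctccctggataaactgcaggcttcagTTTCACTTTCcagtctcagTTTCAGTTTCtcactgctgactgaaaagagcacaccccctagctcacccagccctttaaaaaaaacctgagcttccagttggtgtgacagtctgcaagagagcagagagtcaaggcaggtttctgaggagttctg
Irf7: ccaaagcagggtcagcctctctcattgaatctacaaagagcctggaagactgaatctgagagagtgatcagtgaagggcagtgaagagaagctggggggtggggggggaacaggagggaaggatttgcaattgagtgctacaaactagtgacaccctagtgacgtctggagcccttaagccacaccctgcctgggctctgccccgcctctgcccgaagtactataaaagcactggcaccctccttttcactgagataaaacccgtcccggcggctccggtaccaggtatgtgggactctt

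Set side by side on the strand that carries the letters, with 8 flanking bases on each side, sites of further members can be compared (capitals mark the GAAA pair and the 2 bases between).
Ifit3: cagaagagGAAAGTGAAActtaccac
Ifit3b: cagaagagGAAAGTGAAActtaccac
Oas3: agggaggaGAAAACGAAAgtgaaggg
Rsad2: tgttttctGAAAATGAAAgttggacc
Ddx58: ggccatagGAAATCGAAActgcctca
Slfn8: cttttgggGAAAACGAAActgctcaa
Stat2: agggaaagGAAACTGAAAccagggtg
Bst2: cattccagGAAAATGAAActgaaagg
The Ifit3 site (chr19:34583373-34583382) and the Ifit3b site (chr19:34607769-34607778) are shown because these neighbouring genes are near-copies of each other, and their 26 printed bases are the same. The other 6 are members whose per-library values are given below. Of the printed sites, that of Ddx58 lies just after the transcription start and the others lie before it. The 16 members with the letters had a median log2 change of -1.11 between sST2-KO and WT, the 16 members without them -0.98, and the 10 members with no promoter in the table -0.75. All sST2-KO libraries lay below all WT libraries for 11 of the 16 with the letters and 8 of the 16 without. The same held for 2 of the 10 with no promoter, beside 10% of tested genes. Whether the letters are linked to the change was not tested.

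Libraries held 15615658 to 17988552 counts, and each member had between 17 (Oas3) and 12442 (Ifi27l2a) counts in a library. Levels are given in CPM, which is each count relative to its library's total after TMM adjustment, and listed for replicates 1 to 3 in that order. Some libraries stand apart in ways that the labels do not give. sST2-KO replicate 2 held airway transcripts and WT replicate 3 liver transcripts, and mitochondrially encoded genes took 7.08% of counts in sST2-KO replicate 2 and 37.8% in WT replicate 2, against 18.4 to 23.7% in the other 4. Il1rl1, whose counts add the soluble and the membrane form, had 2.39, 2.82 and 4.86 CPM in sST2-KO, against 2.81, 9.49 and 4.35 CPM in WT. Its libraries overlapped between groups, with a log2 change of -0.72 (SE 0.54) and an edgeR adjusted p of 0.594, so these counts do not check the genotype labels. Apoe, labelled as deficient in both groups, had 172, 86.7 and 145 CPM in sST2-KO, against 15.1, 11.6 and 507 CPM in WT. It was thus counted in every library, and all 3 sST2-KO libraries lay above WT replicates 1 and 2. The 1 high WT value was in replicate 3, the library with liver transcripts. The Apoe log2 change was -0.40 (SE 1.31) with all libraries. Without WT replicate 3 it was 3.34 (edgeR adjusted p = 0.690). Whether the groups share an Apoe background was not settled by these counts, and the part of the liver transcripts was not tested. The labels do not say whether the libraries are separate animals beyond 3 mice per group, and p-values measure the spread between these libraries.

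No interferon-stimulated gene passed the threshold in edgeR, the main test, while nearly all had a log2 change of the same sign. The log2 change of sST2-KO over WT was negative for 41 of 42 members, where 46.5% of all tested genes were negative and 53.5% positive, and the members' median was -0.94 against 0.042 for all tested genes. With edgeR's quasi-likelihood test, 0 of 42 members passed an adjusted p of 0.05, as did 0% of all genes in either direction, and the members' adjusted p ran from 0.320 to 0.844. At an unadjusted p under 0.05, 30 of 42 members were lower and 0 higher, beside 5.95% of tested genes lower and 5.08% higher. All 3 sST2-KO libraries lay below all 3 WT libraries for 21 of 42 members, beside 10% of tested genes, and above them for 0 members, beside 9.09%. A log2 change past -1 was found for 19 of 42 members, beside 5.23% of tested genes. DESeq2 called 13 members lower (1.42% of tested genes) and 0 higher (0.36%), and limma-voom called 0 (0%). Weighting the libraries by their quality in limma-voom gave 3 members lower (0.214%) and 0 higher (0.0488%), which were Ifit1, Trim30a and Xaf1 and were also among the 13 of DESeq2. The members respond to shared signals and are not independent of one another, so these counts describe a set of related genes and not 42 separate observations. Their list was also chosen with earlier results of these data known, which the shares of tested genes do not allow for.

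**Figure D1:**
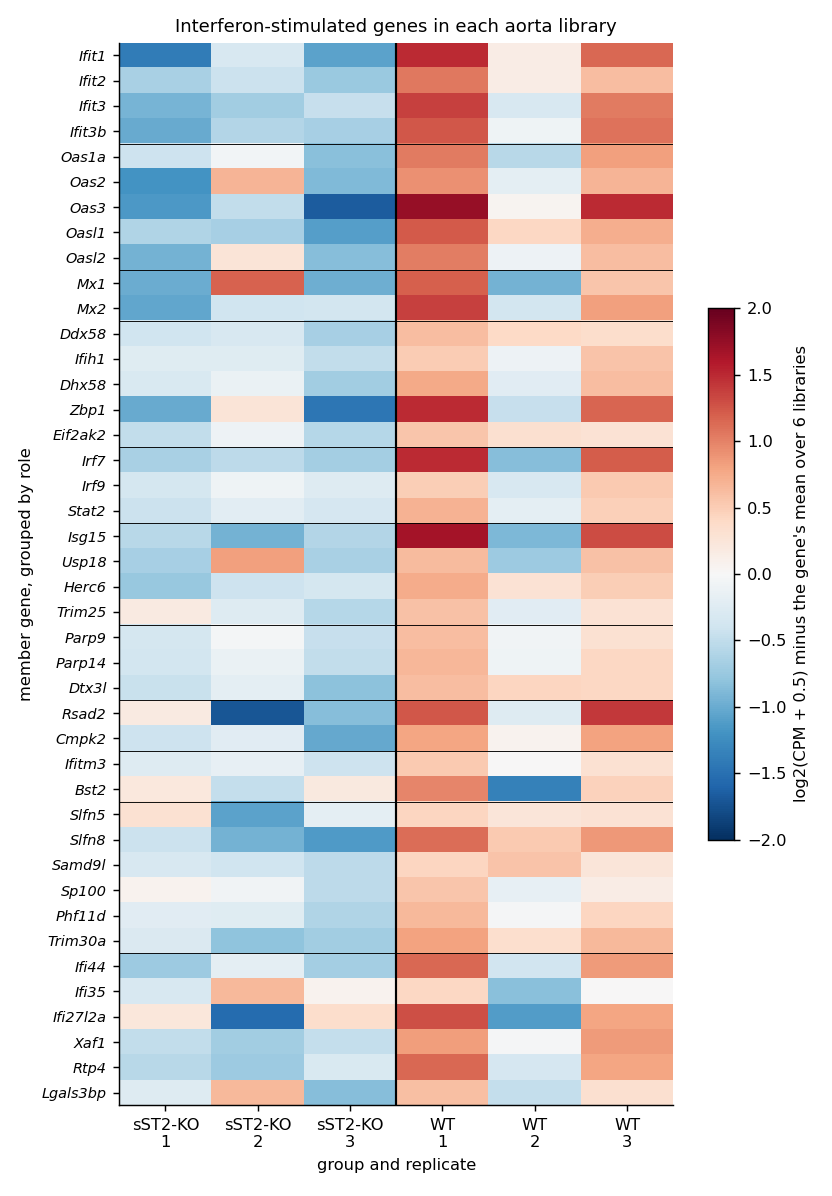
Each row is 1 of the 42 members, grouped by role, and each column 1 library (sST2-KO replicates 1 to 3, then WT replicates 1 to 3); colour is log2(CPM + 0.5) minus the gene's mean over the 6 libraries. WT replicates 1 and 3 are the reddest columns, and were the top 2 libraries for 33 of 42 members, while WT replicate 2 is pale or blue for many of them.

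The IFIT proteins bind foreign RNA and hold back its translation. All 4 of their genes were lower in every sST2-KO library than in every WT library, beside 10% of tested genes. Ifit1 (ENSMUSG00000034459, chromosome 19, 34618271 to 34627409, mm39) had 8.58, 18.7 and 11 CPM in sST2-KO, against 67.2, 26 and 52.7 CPM in WT. WT replicate 2 was the lowest of the WT libraries and still above all 3 sST2-KO libraries. Its group means were 12.7 ± 5.26 CPM in sST2-KO and 48.6 ± 20.9 CPM in WT (SD, n = 3 each). The log2 change was -1.93 (SE 0.43), with an adjusted p of 0.348 in edgeR and 0.00309 in DESeq2. Ifit2 had 18.1, 21.2 and 16.8 CPM in sST2-KO, against 60.2, 31.7 and 44 CPM in WT, with a log2 change of -1.27 (SE 0.26). Ifit3 had 26.8, 31.8 and 37.7 CPM in sST2-KO, against 135, 41.2 and 107 CPM in WT, with a log2 change of -1.55 (SE 0.42). Ifit3b had 7.69 ± 1.23 CPM in sST2-KO and 24.4 ± 10.5 CPM in WT (SD, n = 3 each). DESeq2 called all 4 lower, beside 1.42% of tested genes. Of 100-base windows of Ifit3 transcript, 31.7% also occur in Ifit3b, so the split of reads between the pair is uncertain.

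The OAS family makes short 2'-5' linked adenylate chains on meeting double-stranded RNA, which switch on RNase L. Oas3 (ENSMUSG00000032661, chromosome 5, 120891163 to 120915726) had 1.82, 3.17 and 1.13 CPM in sST2-KO, against 16.8, 4.86 and 14 CPM in WT. It was the member with the widest difference, a log2 change of -2.53 (SE 0.59), and had few counts, 17 to 64 per library in sST2-KO. Its edgeR adjusted p was 0.358 and its DESeq2 adjusted p 0.00309. Oasl1, an OAS-like protein that in mice restrains the translation of Irf7, had 3.75, 3.56 and 2.53 CPM in sST2-KO, against 14.6, 8.13 and 10.2 CPM in WT. The groups were apart in Oasl1, with a log2 change of -1.74 (SE 0.35) and an edgeR adjusted p of 0.339. Oas2 had 13.3, 50.2 and 16.6 CPM in sST2-KO, against 59, 26.9 and 50.3 CPM in WT. In Oas2 the groups overlapped, because sST2-KO replicate 2 stood with the 2 high WT libraries, and its log2 change was -0.77 (SE 0.55). Oas1a and Oasl2 had log2 changes of -1.01 (SE 0.43) and -0.997 (SE 0.41) with overlap. Oas1a shares 40.9% of its 100-base windows with Oas1g, so its counts are uncertain.

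The Mx proteins are dynamin-like GTPases that trap viral parts. Mx2 had 2.5, 4.16 and 4.26 CPM in sST2-KO, against 15.3, 4.31 and 10.4 CPM in WT, a log2 change of -1.46 (SE 0.51). WT replicate 2 lay barely above the highest sST2-KO library there. Mx1 had 3.24, 16.3 and 3.26 CPM in sST2-KO, against 16.5, 3.35 and 10.4 CPM in WT. sST2-KO replicate 2 was close to the highest WT library, WT replicate 2 was close to the other sST2-KO libraries, and the log2 change was -0.41 (SE 0.81), or 0.14 without WT replicate 1.

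Among sensors of nucleic acid, 3 of 5 had all sST2-KO libraries below all WT libraries, beside 10% of tested genes. Ddx58 (ENSMUSG00000040296, chromosome 4, 40203773 to 40239828), which encodes the RNA sensor RIG-I, had 31.4, 33.2 and 26.1 CPM in sST2-KO, against 64, 55 and 53.1 CPM in WT. The 3 WT libraries lay close together here, WT replicate 2 included. Its log2 change of -0.92 (SE 0.17) had an adjusted p of 0.335 in edgeR and 0.00258 in DESeq2. Eif2ak2, the kinase PKR that stops translation on double-stranded RNA, had 19.3, 25.5 and 18.3 CPM in sST2-KO, against 40.7, 34.3 and 33.7 CPM in WT. Its groups were also apart, with a log2 change of -0.78 (SE 0.19). Zbp1, a sensor of left-handed nucleic acid that can start necroptosis, had 6.7, 17 and 4.86 CPM in sST2-KO, against 40.3, 10.05 and 32.1 CPM in WT. WT replicates 1 and 3 were high and the other 4 libraries overlapped, with a log2 change of -1.53 (SE 0.64). Ifih1 (MDA5) and Dhx58 (LGP2) had log2 changes of -0.68 (SE 0.22) and -0.83 (SE 0.33), the first without overlap.

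**Figure D2:**
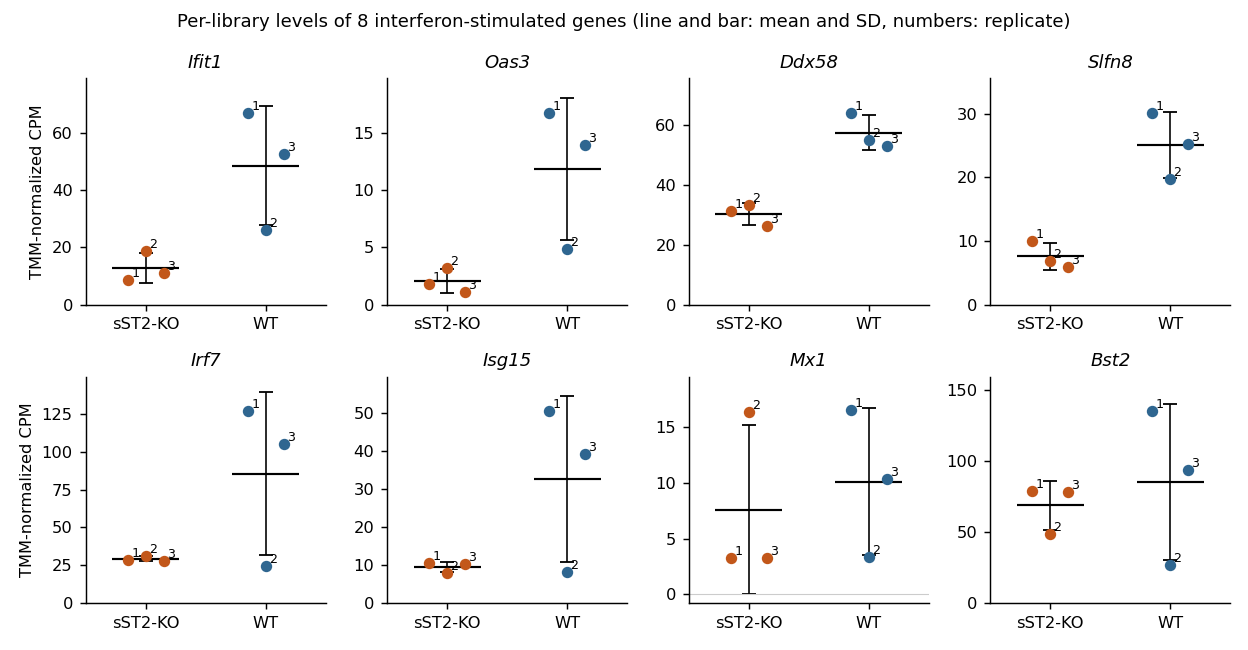
TMM-normalized CPM of 8 members in each library (points, numbered by replicate), sST2-KO left and WT right, with the mean (line) and SD (bar) of 3 libraries. In Ifit1, Oas3, Ddx58 and Slfn8 all WT points lie above all sST2-KO points, while in Irf7, Isg15, Mx1 and Bst2 WT replicate 2 lies at or below sST2-KO libraries.

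The transcription factors of the pathway differed in how much WT libraries varied. Irf7, the factor that amplifies the response, had 28.4, 31 and 27.9 CPM in sST2-KO, against 127, 24.8 and 105 CPM in WT. The sST2-KO libraries were close together at 29.1 ± 1.66 CPM (SD, n = 3), and WT replicate 2 lay below all of them, so that WT gave 85.7 ± 53.8 CPM (SD, n = 3) and the log2 change of -1.56 (SE 0.53) had an edgeR adjusted p of 0.435. Stat2 had 42.1, 48.7 and 44.8 CPM in sST2-KO, against 92.5, 49.7 and 78.7 CPM in WT. Its groups were apart by the narrow gap between sST2-KO replicate 2 and WT replicate 2, with a log2 change of -0.70 (SE 0.24). Irf9, the DNA-binding part of the complex, had 39.6, 47.5 and 42.1 CPM in sST2-KO, against 70.9, 40.2 and 72.8 CPM in WT. WT replicate 2 stood within the sST2-KO libraries in Irf9, and the log2 change was -0.51 (SE 0.25).

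ISG15 is a ubiquitin-like protein joined to other proteins after interferon, in mice mainly by the ligase HERC6, and removed by USP18. Isg15 had 10.4, 7.87 and 10.2 CPM in sST2-KO, against 50.5, 8.13 and 39.2 CPM in WT. Only WT replicates 1 and 3 stood out among the 6 libraries, and the log2 change was -1.78 (SE 0.60) (edgeR adjusted p = 0.431). Herc6 had 6.76, 8.66 and 9.11 CPM in sST2-KO, against 20.1, 14.4 and 16.8 CPM in WT. Its groups were apart, with a log2 change of -1.06 (SE 0.25). Usp18, which also dampens signalling at the receptor, had 8.64, 25 and 8.78 CPM in sST2-KO, against 22.1, 8.29 and 21.3 CPM in WT. sST2-KO replicate 2 was the highest of the 6 in Usp18 and WT replicate 2 the lowest, with a log2 change of -0.28 (SE 0.55). Trim25, a ubiquitin ligase acting on RIG-I, had a log2 change of -0.44 (SE 0.28) with overlap.

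PARP9 and DTX3L form a pair that modifies histones and ubiquitin, and PARP14 adds single ADP-ribose units to proteins. Dtx3l had 20.3, 24.4 and 15.6 CPM in sST2-KO, against 43.1, 37.8 and 37.2 CPM in WT. The 3 WT libraries lay close together above the sST2-KO libraries, with a log2 change of -0.97 (SE 0.20) (DESeq2 adjusted p = 0.0147). Parp14 had 38.9, 45.8 and 35.7 CPM in sST2-KO, against 79.8, 47.5 and 67.2 CPM in WT, a log2 change of -0.69 (SE 0.22). WT replicate 2 was just above the highest sST2-KO library. Parp9 had 31.9, 40.1 and 29.8 CPM in sST2-KO, against 62.9, 39.1 and 51 CPM in WT, with overlap and a log2 change of -0.59 (SE 0.22). Parp9 and Dtx3l lie on opposite strands and share 682 bases, and without a known strand setting reads there cannot be assigned.

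Rsad2 encodes viperin, which makes a chain-terminating nucleotide, and its neighbour Cmpk2 a kinase that supplies the precursor. Cmpk2 had 10.6, 12 and 6.72 CPM in sST2-KO, against 24.8, 15 and 25 CPM in WT, apart in every library, with a log2 change of -1.14 (SE 0.32). Rsad2 had 24.7, 6.28 and 11.8 CPM in sST2-KO, against 52, 18.2 and 58.6 CPM in WT. sST2-KO replicate 1 lay above WT replicate 2, and the log2 change was -1.59 (SE 0.60). Within sST2-KO the pair differed, since replicate 1 held the most Rsad2 and replicate 2 the most Cmpk2.

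The membrane proteins block virus entry or release. Ifitm3, which stops fusion in endosomes, had 212, 228 and 191 CPM in sST2-KO, against 368, 256 and 314 CPM in WT. The groups were apart, with a log2 change of -0.57 (SE 0.21). Bst2, or tetherin, which holds budding virus at the surface, had 79.1, 48.9 and 78.1 CPM in sST2-KO, against 135, 26.6 and 93.9 CPM in WT. WT replicate 2 was the lowest of all 6 libraries in Bst2, and the log2 change was -0.31 (SE 0.53), or 0.19 without WT replicate 1.

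Schlafen, SAMD9-like and nuclear body genes held the member with the lowest p. Slfn8 (ENSMUSG00000035208, chromosome 11, 82892984 to 82911636) had 9.999, 6.83 and 5.92 CPM in sST2-KO, against 30.2, 19.8 and 25.3 CPM in WT. The groups were well apart in Slfn8, with means of 7.58 ± 2.14 CPM in sST2-KO and 25.1 ± 5.2 CPM in WT (SD, n = 3 each). Its log2 change was -1.73 (SE 0.29), with an edgeR adjusted p of 0.32 and a DESeq2 adjusted p of 6.51e-05. Trim30a, a mouse protein that restrains inflammatory signalling, had 32.7, 22.7 and 24.5 CPM in sST2-KO, against 70.1, 50.6 and 63.1 CPM in WT. Its log2 change was -1.20 (SE 0.21), again with the groups apart. Samd9l, chosen after its values were seen, had 49.1, 46.4 and 42.6 CPM in sST2-KO, against 82.4, 91.4 and 72.3 CPM in WT. WT replicate 2 was the highest of the 6 libraries there, unlike in most members, and the log2 change was -0.83 (SE 0.16). Sp100, a part of PML nuclear bodies, had 78.2, 71.1 and 51.6 CPM in sST2-KO, against 110.4, 66.4 and 82.6 CPM in WT, with overlap and a log2 change of -0.37 (SE 0.25). Phf11d and Slfn5 had log2 changes of -0.73 (SE 0.22) and -0.54 (SE 0.34), of which Phf11d was without overlap.

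Among the remaining members, Xaf1, a partner of the apoptosis inhibitor XIAP, had 18.5, 15.9 and 18.6 CPM in sST2-KO, against 47, 25.7 and 47.6 CPM in WT. Its groups were apart, with a log2 change of -1.18 (SE 0.27) and an adjusted p of 0.0168 in DESeq2 and 0.0458 in quality-weighted limma-voom. Rtp4, which limits replication of some RNA viruses, had 20.1, 17.7 and 24 CPM in sST2-KO, against 66.5, 23.4 and 51.8 CPM in WT, with slight overlap and a log2 change of -1.20 (SE 0.37). Lgals3bp, a secreted glycoprotein, had 147, 277 and 97.7 CPM in sST2-KO, against 267, 126 and 220.3 CPM in WT. sST2-KO replicate 2 was the highest of the 6 there, and the log2 change was -0.23 (SE 0.44). Ifi44 and Ifi27l2a had log2 changes of -1.24 (SE 0.43) and -0.73 (SE 0.68), both with overlap. Ifi35, with 23, 45.8 and 30.2 CPM in sST2-KO, against 38.8, 16 and 29.2 CPM in WT, was the 1 member with a positive log2 change, 0.23 (SE 0.38), which was -0.081 without sST2-KO replicate 2.

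**Figure D3:**
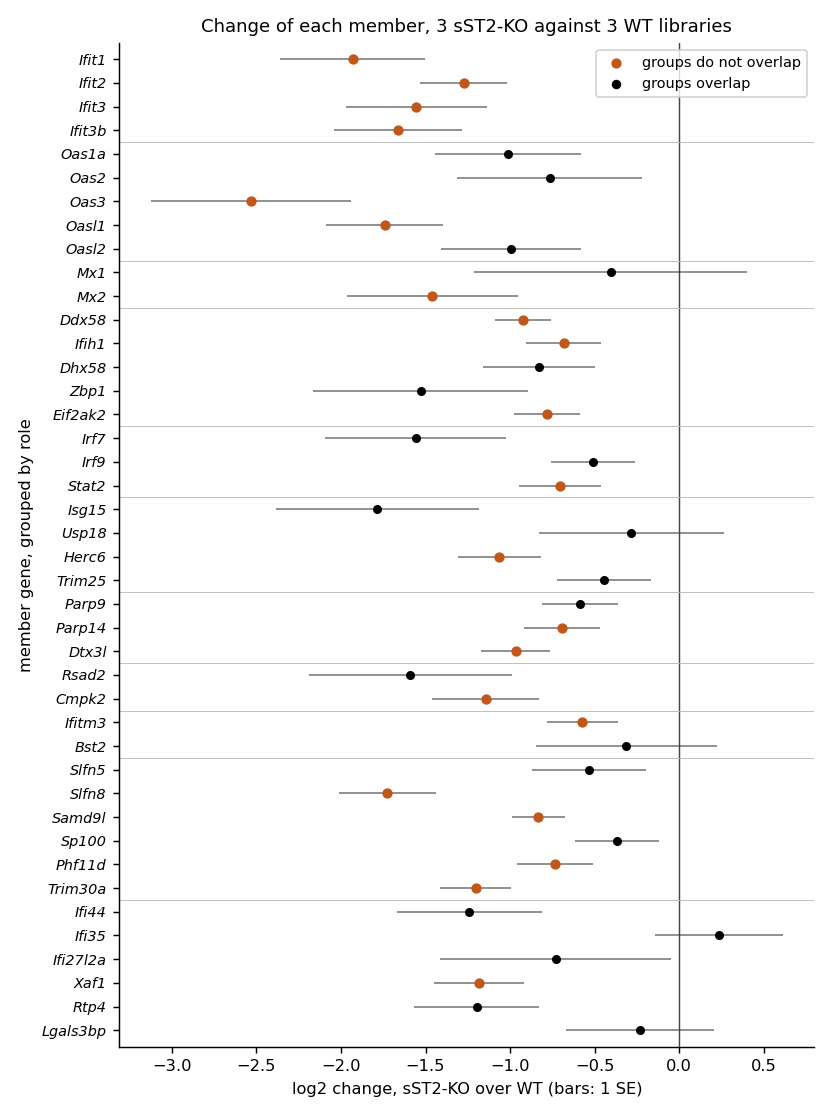
Log2 change of sST2-KO over WT for each member, grouped by role, with bars of 1 SE from edgeR (3 libraries per group); orange points mark the 21 members whose groups do not overlap. Points run from -2.53 (Oas3) to 0.23 (Ifi35), and 41 of 42 lie left of 0.

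Per kilobase of the gene length given in the authors' table, the 4 members with the highest levels held the same ranks in both groups. Ifi27l2a came first with 566 CPM per kb in sST2-KO and 939 CPM per kb in WT, followed by Ifitm3 (310 and 462 CPM per kb). Bst2 was next with 76.1 CPM per kb in sST2-KO and 94.4 CPM per kb in WT, then Lgals3bp with 61.1 and 71.8. Ifi27l2a itself had 329, 96.5 and 360.3 CPM in sST2-KO, against 686, 129.8 and 488 CPM in WT, with the lowest values in replicate 2 of each group. Oas3 was last in both groups, with 0.288 CPM per kb in sST2-KO and 1.68 CPM per kb in WT. Together the 42 genes took 0.172, 0.191 and 0.152% of counts in sST2-KO, against 0.399, 0.137 and 0.311% in WT. Exact Clopper-Pearson 95% intervals, which cover counting error only, were 0.170 to 0.174, 0.189 to 0.193 and 0.150 to 0.154% in sST2-KO and 0.396 to 0.402, 0.135 to 0.139 and 0.309 to 0.314% in WT. WT replicate 2 had the smallest share of raw counts, in a library where mitochondrial transcripts took 37.8% of them. After TMM scaling the members summed to 1758, 1683 and 1579 CPM in sST2-KO, against 3684, 1754 and 3001 CPM in WT. By this sum, in which members with high CPM weigh most, WT replicate 2 lay among the sST2-KO libraries. Gene by gene, WT replicate 2 was below the sST2-KO mean for 12 of 42 members, beside 54.1% of tested genes.

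The members varied widely within WT. Expressed as each gene's log2 CPM less its 6-library mean, the members' median was -0.43, -0.25 and -0.63 in sST2-KO and 0.83, -0.14 and 0.62 in WT. WT replicates 1 and 3 were the top 2 libraries for 33 of 42 members, beside 8.3% of tested genes. WT replicate 1 was the highest of all for 33 members, beside 10.8% of tested genes. WT replicate 2 lay below the highest sST2-KO library for 21 of 42 members, beside 68.3% of tested genes, and below all 3 for 4 members (Irf7, Usp18, Bst2 and Ifi35), beside 32.9% of tested genes. Its median distance above the sST2-KO mean was 0.28 on the log2 scale, against 1.25 for the mean of WT replicates 1 and 3. The SD of log2 CPM was larger in WT than in sST2-KO for 29 of 42 members, against 45.8% of tested genes, with median SDs of 0.31 in sST2-KO and 0.53 in WT. Leaving out WT replicate 2, the groups did not overlap for 38 of 42 members, beside 16.7% of tested genes. The median log2 change was then -1.14, and 0 members passed in edgeR (0% of tested genes). With all libraries, WT replicates 1 and 3 both lay above every sST2-KO library for 37 of 42 members, beside 15.7% of tested genes. The 38 thus restates that pattern after the low WT library is left out, and is no separate support.

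**Figure D4:**
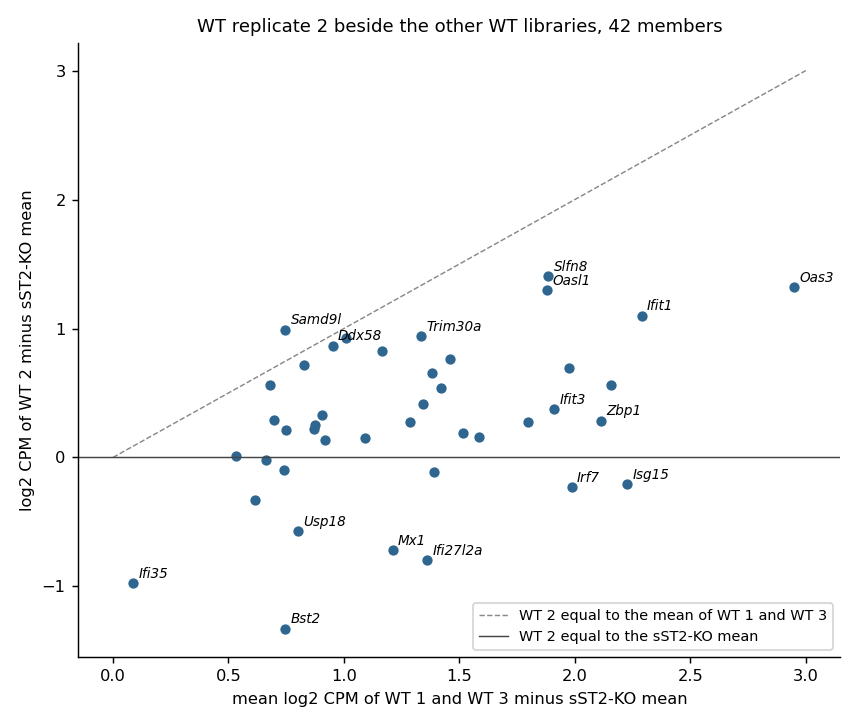
Each point is 1 of 42 members: the mean log2 CPM of WT replicates 1 and 3 minus the sST2-KO mean (x) and log2 CPM of WT replicate 2 minus the same mean (y). Samd9l lies above the dashed line where WT replicate 2 equals the other WT libraries, with Ddx58 close under it, while Irf7, Isg15, Mx1, Ifi27l2a and Bst2 lie below the solid line at the sST2-KO mean.

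The members differed among themselves in WT replicate 2. Samd9l and Ddx58 in that library were 0.99 and 0.87 above the sST2-KO mean in log2 CPM, close to the 0.75 and 0.95 of WT replicates 1 and 3. Irf7 and Isg15 were -0.23 and -0.21 from the sST2-KO mean there, against 1.99 and 2.23 for WT replicates 1 and 3. Oas3 and Ifit1 were in between, at 1.32 and 1.10 against 2.95 and 2.29. These 6 were picked after their values were seen. sST2-KO replicate 2, the library with airway transcripts, was above the mean of the other sST2-KO libraries by 2.29 on the log2 scale in Mx1, 1.75 in Oas2 and 1.51 in Usp18, and differed from it by -1.83 in Ifi27l2a and -1.43 in Rsad2. Leaving out sST2-KO replicate 2, 42 of 42 members had negative log2 changes, the median was -1.11 and the groups did not overlap for 27 members, beside 17.4% of tested genes, and 0 members passed in edgeR, beside 0.00594%. With WT replicate 3 left out as well as sST2-KO replicate 2, 27 members did not overlap, beside 21.9% of tested genes. With WT replicate 2 and sST2-KO replicate 2 both left out, edgeR called 14 members lower and 0 higher, beside 0.438% of tested genes lower and 0.234% higher, and 40 members did not overlap, beside 25.5% of tested genes. This setting was added after the data were seen and leaves out the WT library with low member levels. Of those 14, 6 were among the 13 that DESeq2 called with all libraries, namely the 4 IFIT genes, Oas3 and Xaf1.

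Genes that make and relay the signal were listed as a pathway and read from the same fit. Of 19 genes for type I and III interferons, Ifnb1 among them, 14 had no count in any library and the others at most 3 counts in a library, so these ligands were not detectable at this depth, at which 3 counts correspond to 0.148 to 0.239 CPM. Ifng, the type II interferon, had 1, 0 and 0 counts in sST2-KO and 6, 0 and 2 counts in WT. Of 6 genes in the list of the receptor and its kinases, 0 passed the threshold, 6 were negative and the median was -0.24. The receptor chain Ifnar1 had 61.4, 49.4 and 41.5 CPM in sST2-KO, against 76.3, 73.7 and 72.9 CPM in WT. Its groups were apart, with a log2 change of -0.55 (SE 0.18) and an edgeR adjusted p of 0.431. The other chain, Ifnar2, had 57.7, 37.6 and 55.5 CPM in sST2-KO, against 64.1, 40.7 and 60.3 CPM in WT, overlapping, with a log2 change of -0.13 (SE 0.25). The kinase gene Jak1 had a log2 change of -0.50 (SE 0.18) without overlap.

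Of the 17 tested genes that sense nucleic acid upstream of interferon, 0 passed in edgeR, 13 were negative and the median was -0.37. DESeq2 called 3 of them lower and 0 higher, beside 1.42% of tested genes lower and 0.36% higher. Tlr8, an endosomal receptor of RNA, had 4.6, 3.22 and 2.33 CPM in sST2-KO, against 11.4, 15.5 and 11.4 CPM in WT. WT replicate 2 was the highest WT library, and the log2 change was -1.91 (SE 0.35). Tlr7, which senses single-stranded RNA, had 10.3, 7.27 and 10.2 CPM in sST2-KO, against 22.6, 19.2 and 17.7 CPM in WT, also apart, with a log2 change of -1.10 (SE 0.24). Trex1, a DNA-degrading enzyme, is listed at 0 in every library. It shares 1802 bases with Atrip on the same strand. Among 12 negative regulators 0 passed, 11 were negative and the median was -0.14. The lowest p belonged to Nlrc3, which dampens STING signalling, at -1.09 (SE 0.34), and to the phosphatase gene Ptpn6 at -0.89 (SE 0.30). Of 13 tested genes of the interferon gamma axis 0 passed in edgeR, 13 were negative and the median was -0.62. In that list DESeq2 called 3 lower and 0 higher, beside the same shares of tested genes. The GTPase gene Iigp1 had 29.1, 27.8 and 23.3 CPM in sST2-KO, against 101, 50.6 and 104 CPM in WT, apart in every library, with a log2 change of -1.67 (SE 0.29). Gbp2, another GTPase gene, had 47.2, 37.5 and 49.3 CPM in sST2-KO, against 98.3, 66.3 and 85.5 CPM in WT, also apart, with a log2 change of -0.90 (SE 0.20).

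Markers of several cell types varied across the libraries beside the members, and their part in the result was not tested. Summed levels are over all markers found, and counts of negative log2 changes over those tested. The macrophage and monocyte list had 14 of 15 negative log2 changes, beside 46.5% of tested genes, and a median of -0.83. In 8 of 15 genes all sST2-KO libraries lay below all WT libraries, beside 10% of tested genes. In edgeR 0 passed, and DESeq2 called 6 lower, beside 1.42% of tested genes. The summed level of the list was 2446 to 4151 CPM in sST2-KO and 3492 to 4119 CPM in WT, and no marker of the list was at 0. Much of that sum was Lyz2, which had 2051, 3152 and 1373 CPM in sST2-KO, against 2043, 1844 and 1887 CPM in WT and was the 1 marker of the list with a positive log2 change, 0.19 (SE 0.36). On the same scale as the members' median above, the median of the whole list stood at -0.07, -0.66 and -0.66 in sST2-KO and 0.55, 0.31 and 0.48 in WT. By this median WT replicate 2 was nearer the other WT libraries in the macrophage list, and nearer sST2-KO in the interferon-stimulated genes, but single markers differed. Adgre1, which encodes F4/80, had 42.7, 27.3 and 26.6 CPM in sST2-KO, against 94.5, 89.3 and 90.9 CPM in WT. Ccr2, a chemokine receptor gene of inflammatory monocytes, had 39.6, 24.9 and 18 CPM in sST2-KO, against 79.6, 85.4 and 72 CPM in WT. In both, WT replicate 2 lay with the other WT libraries. Other genes of the list placed it at the sST2-KO level. Ly6c2, also of inflammatory monocytes, had 1.82, 2.97 and 1.53 CPM in sST2-KO, against 8.27, 1.91 and 8.41 CPM in WT. C1qa, a complement gene of tissue macrophages, had 239, 173 and 204 CPM in sST2-KO, against 358, 187 and 359.6 CPM in WT, and C1qc overlapped as well. Cd14 overlapped for another reason, since sST2-KO replicate 2 was the highest of the 6 libraries. It had 28.35, 81.6 and 30.5 CPM in sST2-KO, against 66.7, 40.9 and 63.9 CPM in WT.

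**Figure D5:**
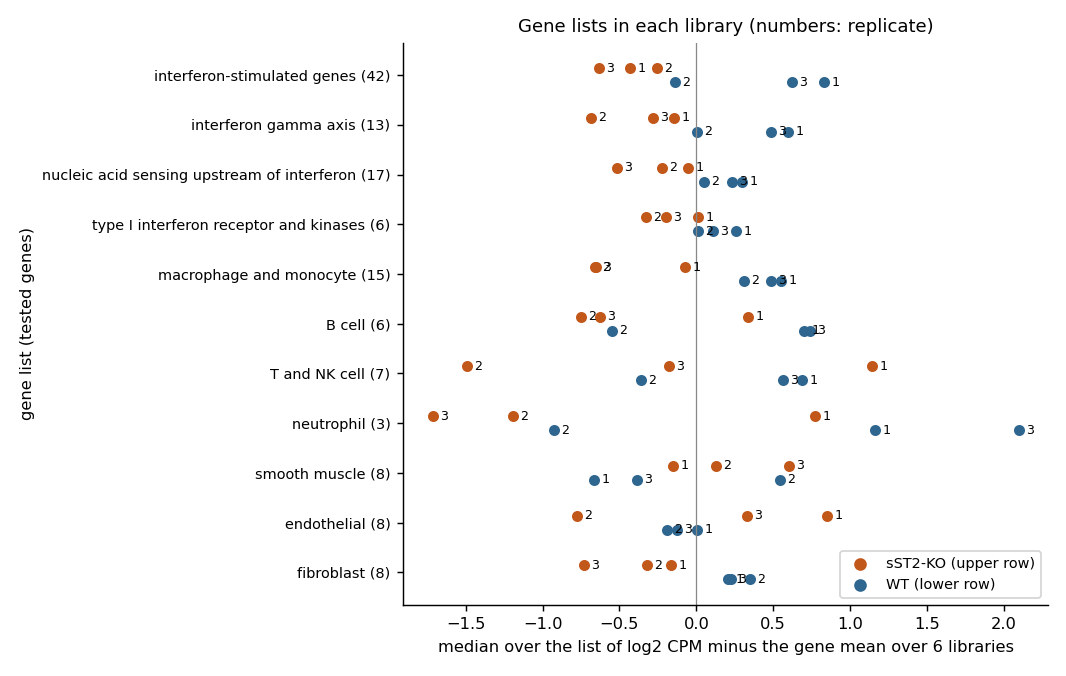
For each gene list, the median deviation of its tested genes (log2 CPM less the 6-library mean) is shown per library (orange above, sST2-KO; blue below, WT; numbers are replicates). WT replicate 2 lies near sST2-KO in the interferon-stimulated genes, and near the other WT libraries in the macrophage and fibroblast lists. In the B cell and T and NK cell lists it lies below the other WT libraries. There the sST2-KO libraries are themselves spread, from -0.75 to 0.33 and from -1.49 to 1.14.

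By their medians, lymphocyte and neutrophil lists also had WT replicates 1 and 3 above WT replicate 2. The B cell list stood at 0.33, -0.75 and -0.63 in sST2-KO and 0.70, -0.55 and 0.74 in WT, the T and NK cell list at 1.14, -1.49 and -0.18 in sST2-KO and 0.69, -0.36 and 0.56 in WT, and the 3 tested genes of 8 in the neutrophil list at 0.77, -1.19 and -1.72 in sST2-KO and 1.17, -0.93 and 2.10 in WT. Their summed levels were 7.97 to 19.5 CPM in sST2-KO and 13.6 to 24.5 CPM in WT for B cells, 8.07 to 38.5 CPM in sST2-KO and 16.7 to 31.5 CPM in WT for T and NK cells and 12 to 69.9 CPM in sST2-KO and 27 to 190.4 CPM in WT for neutrophils. Ncr1 and Klrb1c of the T and NK list and Mpo, Elane, Camp and Ngp of the neutrophil list were at 0 in WT replicate 2. Zeros also occurred in sST2-KO, for Ly6g in all 3 libraries, Mpo in replicate 2 and Camp in replicate 3. Single markers placed WT replicate 2 differently. Among B cell markers, Ms4a1 was highest of the 6 libraries there, with 3.31, 4.15 and 3.52 CPM in WT. Cd79a was lowest of the 6 there, with 4.91, 1.12 and 3.88 CPM in WT. Cd3e, of the T and NK list, had 1.87, 2.79 and 2.92 CPM in WT. In sST2-KO replicate 1 these 3 lists were high, at 0.33 to 1.14, where the members were at -0.43. Markers of plasmacytoid dendritic cells, the main makers of interferon alpha in blood, summed to 118 to 157 CPM in sST2-KO and 142 to 163 CPM in WT, most of it Tcf4, which other cells also express, and the defining gene Siglech had 0.625, 0.891 and 0.333 CPM in sST2-KO, against 0.386, 0.638 and 0.775 CPM in WT. Conventional dendritic cell markers summed to 52.8 to 96.6 CPM in sST2-KO and 110.3 to 121 CPM in WT, with 5 of 6 negative. Smooth muscle and endothelial lists had 0 of 8 negative log2 changes each, and the fibroblast list 8 of 8. Airway markers, 4 of 8 tested, summed to 4.55 to 30781 CPM in sST2-KO and 13.2 to 32.5 CPM in WT, the high value being sST2-KO replicate 2, and hepatocyte markers, 4 of 8 tested, to 243 to 308 CPM in sST2-KO and 160.2 to 12878 CPM in WT, the high value being WT replicate 3. Brown adipocyte markers summed to 136 to 2359 CPM in sST2-KO and 158 to 283 CPM in WT.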

How the data were processed

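Aortas of 3 sST2-KO and 3 WT mice were profiled by RNA sequencing. Per the labels' protocols, libraries were made from poly-A RNA with random hexamer priming. The authors deposited 1 table of raw counts by Ensembl gene. Per the submitters' processing notes the build was mm39. Of the aligner, counter, strand setting and annotation release, each was not given in the sources used here. Samples were grouped by their titles, and 0 columns of values were left unmatched.

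The main test used edgeR 4.0.16 (R 4.3.3): filterByExpr (minimum count 10, minimum total 15), TMM scaling, glmQLFit and glmQLFTest of sST2-KO over WT, and Benjamini-Hochberg adjustment over all 16377 tested genes with a threshold of 0.05. SEs of log2 changes were derived from the F statistic, as the absolute log2 change over its root. Per-library list medians use log2 CPM with a prior count of 2. The test was checked on simulated data. DESeq2 1.42.0 and limma 3.58.1 were run as alternatives, with others described in the closing section. Libraries were compared for duplicates on genes with 50 or more counts per pair: squared differences had medians 6.55 to 84.1 times those of counting noise, so none was a duplicate. Replicate numbers are shared by the groups, but same-numbered libraries did not deviate together (correlations over genes of 0.15, 0.046 and -0.087), so no pairing was used.

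The members and gene lists were chosen with earlier results of these data known. In each role group the up to 2 members with the lowest unadjusted p are given with every library's value, beside the member with the highest p, and the rest by range; of each pathway list the 2 with the lowest p are given, beside Ifnar1, Ifnar2, Ifnb1, Ifng and Il1rl1; 1 further gene of this rule is not reported here. Other genes given with values (Samd9l, Ifi35, Ifi27l2a, Ifit3b and the marker genes) were picked after their values were seen. Promoters came from RefSeq (GRCm38.p6) and transcripts from GENCODE vM21, matched by symbol and by gene identifier. Transcripts were found for 42 members, of which 5 shared over 10% of their 100-base windows with another gene, and 17 members overlap another gene in the table. Plots were drawn with matplotlib 3.10.9.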

Additional observations from a re-analysis of the deposited data

How the results depend on the processing

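With all libraries, edgeR called 0 genes, 0 of 42 interferon-stimulated genes and 0 pathway genes. RLE or upper-quartile scaling, other low-count filters, limma-voom, a threshold of 0.1 and leaving out mitochondrially encoded genes also called 0, and gave median log2 changes of the members of -0.98 to -0.93. The replicate block (same-numbered libraries as a block) called 0 genes too, with a members' median of -0.96. DESeq2 called 291 genes, 13 members and 6 pathway genes. These members and pathway genes were all lower, beside 1.42% of tested genes lower and 0.36% higher. Tested pathway genes numbered 6 for the receptor and kinases and 17 for nucleic acid sensing. They numbered 12 for negative regulators and 13 for the interferon gamma axis. Limma-voom with quality weights called 43 genes, 3 members and 1 pathway gene, and its members' median was -1.18. The called members and pathway gene were lower, beside 0.214% of tested genes lower and 0.0488% higher. Leaving out 1 library called 0 to 1 genes and 0 members, with members' medians of -1.14 to -0.77. Members without overlap then numbered 20 to 38, beside 13.1 to 17.4% of tested genes lower without overlap. With all libraries these were 21 members and 10%. The 38 was without WT replicate 2, the WT library with low member levels, beside 16.7% of tested genes. Leaving out both WT replicate 3 and sST2-KO replicate 2 gave a median of -1.05 and 0 called. Groups then did not overlap for 27 members, beside 21.9% of tested genes. Without WT replicate 2 and sST2-KO replicate 2, a setting added after the data were seen, 112 genes, 14 members and 2 pathway genes were called. The called members and pathway genes were lower, beside 0.438% of tested genes lower and 0.234% higher. In that setting 40 members did not overlap, beside 25.5% of tested genes. The cause of these differences was not tested.

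Members whose direction turned were not called in any of these settings. Without WT replicate 1, Mx1 was at 0.14, Bst2 at 0.19 and Lgals3bp at 0.0067; without sST2-KO replicate 3, Lgals3bp was at 0.051. Ifi35 was at -0.18 with quality weights, -0.081 without sST2-KO replicate 2, -0.064 without WT replicate 2, -0.059 without WT replicate 3 and sST2-KO replicate 2, and -0.36 without WT replicate 2 and sST2-KO replicate 2. With 1 library left out, Mx1 ran from -1.64 to 0.14, Bst2 from -0.76 to 0.19, Lgals3bp from -0.74 to 0.051 and Ifi35 from -0.081 to 0.55. The median over all tested genes stayed within -0.021 to 0.079 in all settings.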
